A study of Mus musculus with 2 samples.

Results

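The 10 genes described here were the 7 arachidonate lipoxygenase genes of the mouse listed in the deposited gene table (*Alox12*, *Alox12b*, *Alox12e*, *Alox15*, *Alox5*, *Alox8* and *Aloxe3*) and 3 barrier lipid genes (*Elovl4*, *Abca12* and *Ugcg*). They were chosen by gene symbol, and each had 1 row among the 18498 rows of the table, of which 18043 carried a symbol. Expression was measured by poly(A) RNA sequencing in the circumvallate papillae (CvP), the taste papillae at the back of the tongue, and in tongue epithelium without papillae (Epi). Both tissues came from untreated male C57BL/6J mice aged 12 to 30 weeks, fed normal chow, with no transgene or mutation in either group, and RNA of at least 20 mice was pooled into 1 library per tissue. For a CvP sample taken for RT-PCR the methods state that the epithelium around the taste buds was included. Replicates were absent, so no test was made and every comparison is between these 2 libraries. Values are RPKM, a density of reads corrected for exon length and for the number of mapped reads, and a CvP/Epi ratio is the quotient of the RPKM values. The libraries held about 28375286 (CvP) and 27910121 (Epi) mapped reads, read from the steps between the lowest RPKM values. The 95% intervals given with ratios come from the reads estimated for each gene and cover counting error only.

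Lipoxygenases are iron enzymes that add oxygen to polyunsaturated fatty acids. In the cornified epithelium of skin, *Alox12b* and *Aloxe3* act in sequence on the linoleate carried by acylceramides, which allows these lipids to be bound to the proteins of the cell envelope, and *Elovl4*, *Ugcg* and *Abca12* elongate, glucosylate and transport the lipids that reach this step. The other lipoxygenases are known mainly from leukocytes, platelets and stimulated skin, where they make hydroperoxy fatty acids and, through *Alox5*, leukotrienes. Loss of *ALOX12B*, *ALOXE3* or *ABCA12* causes ichthyosis in humans.

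The ends of the 7 lipoxygenase coding sequences are shown first because they display both the feature the family shares and how far its members differ, which decides whether reads can be told apart. Each line gives the last 48 bases of the longest coding transcript of GENCODE M1 on NCBI37/mm9, 5′ to 3′, with the last codon and the stop codon in capitals. The last codon encodes the isoleucine whose terminal carboxyl group binds the iron of the enzyme.
Alox12b: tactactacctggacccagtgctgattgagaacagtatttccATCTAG
Aloxe3: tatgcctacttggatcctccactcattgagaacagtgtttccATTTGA
Alox8: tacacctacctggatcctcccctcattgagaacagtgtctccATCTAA
Alox12: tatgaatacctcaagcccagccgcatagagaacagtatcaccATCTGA
Alox12e: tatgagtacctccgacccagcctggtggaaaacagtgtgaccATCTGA
Alox15: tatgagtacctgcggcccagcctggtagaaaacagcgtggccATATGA
Alox5: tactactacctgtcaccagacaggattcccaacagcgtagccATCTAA

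The codon was ATC in 5 of the genes, ATA in *Alox15* and ATT in *Aloxe3*. These ends lie at chr11:68983180-68983227 on the plus strand for *Alox12b* and at chr11:68962194-68962241 on the plus strand for *Aloxe3*. On the minus strand of the same chromosome they lie at chr11:68998592-68998639 for *Alox8*, chr11:70055887-70055934 for *Alox12*, chr11:70129373-70129420 for *Alox12e* and chr11:70158045-70158092 for *Alox15*. The end of *Alox5* lies at chr6:116360737-116360784 on the minus strand. The coding sequences ran from 662 codons in *Alox12e* to 711 in *Aloxe3*, the stop codon not counted. Although the ends are alike, no 75-base window, the length of a read, of any of the 7 transcripts occurred in the longest coding transcript of another gene, and no window matched another of the 7 within 2 mismatches. The most alike windows were those of *Alox8* and *Aloxe3*, with 86.7% of bases identical, and the longest run in common was 29 bases, between *Alox12b* and *Aloxe3*. Exons of the 10 genes shared 0 bases with exons of other annotated genes.

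*Alox12b* and *Aloxe3* were the most abundant lipoxygenase transcripts of both tissues, and both were lower in the CvP. *Alox12b*, which encodes the 12R-lipoxygenase of the barrier pathway, had an RPKM of 205 in the CvP against 353 in the Epi. Its CvP/Epi ratio was 0.581 (95% interval 0.569 to 0.593) from about 14162 and 23970 reads, so its level was 1.72 times higher in the Epi. *Aloxe3*, which encodes the isomerase that acts on the product of *Alox12b*, had an RPKM of 63.9 in the CvP against 119.6 in the Epi, and its ratio was 0.534 (0.517 to 0.552). The summed RPKM of the 7 lipoxygenases was 321 in the CvP against 496 in the Epi, and this pair gave 83.8% of the sum in the CvP against 95.4% in the Epi. *Alox12b* exceeded *Aloxe3* by 3.21 times in the CvP against 2.95 times in the Epi. The quotient of these ratios, 1.09 (1.05 to 1.13), was nearer to 1 than the ratio of either gene. In bulk tissue, fewer cells of a type and less RNA per cell cannot be told apart. *Alox12b* lies at chr11:68970574-68983293 and *Aloxe3* at chr11:68939879-68962617, both on the plus strand with 15 exons.

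The 3 barrier lipid genes were also lower in the CvP, each by less than 3-fold. *Elovl4*, the elongase that makes the ultra-long fatty acids of acylceramides, had an RPKM of 141 in the CvP against 209 in the Epi, with a ratio of 0.672 (0.657 to 0.688). It was the second most abundant of the 10 genes in each library. *Abca12*, the transporter that loads glucosylceramides into lamellar granules, had an RPKM of 24.7 in the CvP against 55.2 in the Epi. Its ratio of 0.447 (0.433 to 0.461), equal to a level 2.24 times higher in the Epi, was the lowest of the 10 genes. *Ugcg*, which encodes glucosylceramide synthase, had an RPKM of 48.9 in the CvP against 64.5 in the Epi, and its ratio was 0.758 (0.732 to 0.785). Between the CvP and Epi libraries the ratios of the 3 genes differed by more than counting error, and variation between pools was not measured. *Elovl4* exceeded *Abca12* by 5.70 times in the CvP against 3.79 times in the Epi, and the quotient of these was 1.51 (1.45 to 1.57). *Elovl4* exceeded *Ugcg* by 2.88 and 3.24 times, with a quotient of 0.887 (0.850 to 0.925). *Elovl4* lies at chr9:83672299-83699912 on the minus strand with 6 exons, *Abca12* at chr1:71289664-71461484 on the minus strand with 53 exons, and *Ugcg* at chr4:59202422-59235705 on the plus strand with 9 exons.

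**Figure D1:**
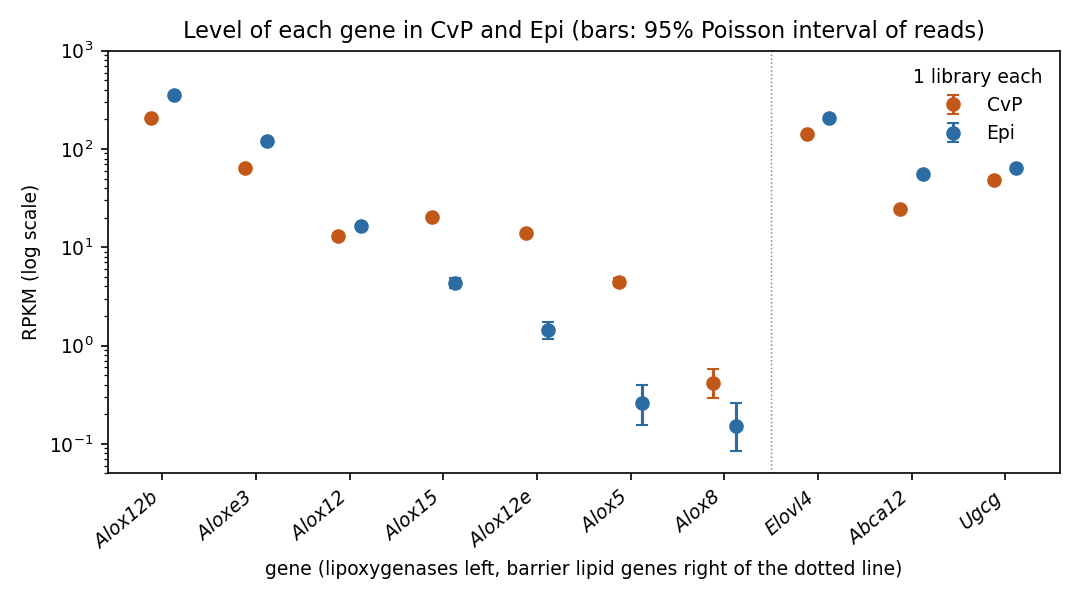
RPKM of the 10 genes in the CvP library and the Epi library on a logarithmic axis, 1 point per gene and library, with bars for the 95% Poisson interval and the barrier lipid genes right of the dotted line. *Alox12b*, *Elovl4* and *Aloxe3* are the highest in both libraries, and *Alox5* and *Alox8* are the lowest.

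The remaining 5 lipoxygenases split into 1 gene that was slightly lower in the CvP and 4 that were higher there. *Alox12*, the platelet-type 12S-lipoxygenase, had an RPKM of 12.9 in the CvP against 16.4 in the Epi, and its ratio of 0.787 (0.726 to 0.852) was the nearest to 1 of the 10 genes. *Alox15*, the leukocyte-type 12/15-lipoxygenase, had an RPKM of 20.3 in the CvP against 4.35 in the Epi, a ratio of 4.68 (4.12 to 5.33). *Alox12e*, the epidermal-type 12S-lipoxygenase of the mouse, had an RPKM of 13.9 in the CvP against 1.44 in the Epi, a ratio of 9.64 (7.84 to 12.0). These genes are neighbours on chromosome 11, and the level of *Alox12e* relative to *Alox15* was 0.682 in the CvP against 0.331 in the Epi, a change of 2.06 times (1.62 to 2.63). The ends printed above are closely alike for this pair, and their most alike windows were 84.0% identical.

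*Alox5*, the enzyme that opens leukotriene synthesis, had a high ratio at a low level. Its RPKM was 4.43 in the CvP against 0.260 in the Epi, from about 355 and 20 reads, and its ratio was 17.0 (11.1 to 28.9). This interval overlaps that of *Alox12e*, and with 1 added to each RPKM the ratio of *Alox5* was 4.31, below the 6.10 of *Alox12e*, so no order between them is given. *Alox8*, the phorbol ester-inducible 8S-lipoxygenase of mouse skin, was scarcely present, with an RPKM of 0.420 in the CvP against 0.150 in the Epi. Its ratio of 2.80 (1.41 to 5.33) rests on about 38 and 14 reads and was 1.23 with 1 added to each RPKM. The summed share of the lipoxygenases moved with these levels. *Alox15* made up 6.33% of the summed lipoxygenase RPKM in the CvP against 0.878% in the Epi, *Alox12e* 4.32% and 0.291%, and *Alox5* 1.38% and 0.0525%. *Alox12* lies at chr11:70054957-70068843, *Alox12e* at chr11:70129115-70136020, *Alox15* at chr11:70157649-70165533, *Alox8* at chr11:68997387-69011341 and *Alox5* at chr6:116360089-116411196, all on the minus strand with 14 exons.

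**Figure D2:**
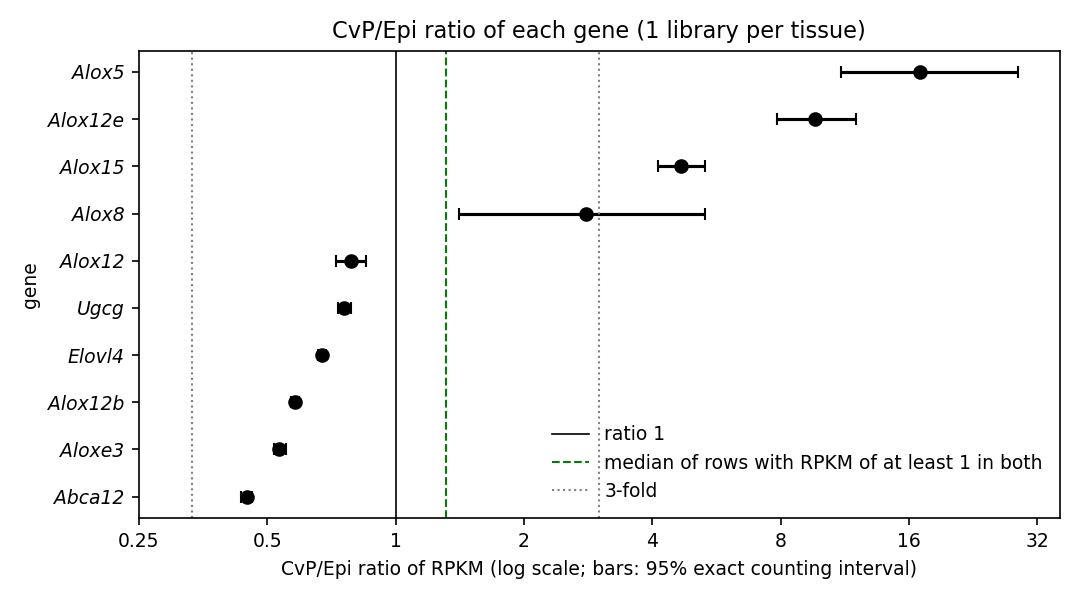
CvP/Epi RPKM ratio of each of the 10 genes on a logarithmic axis, with its 95% counting interval, a solid line at 1, dotted lines at 3-fold and a dashed line at the median of rows at an RPKM of 1 or more in both libraries. *Alox5*, *Alox12e* and *Alox15* lie above 3, *Alox8* lies between 1 and 3, and the other 6 genes lie between 0.447 and 0.787.

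By level per length, the order in the CvP was *Alox12b*, *Elovl4*, *Aloxe3*, *Ugcg*, *Abca12*, *Alox15*, *Alox12e*, *Alox12*, *Alox5* and *Alox8*. Only *Alox12e* (13.0 to 14.8) and *Alox12* (12.2 to 13.7) had counting intervals of RPKM that overlapped between neighbours of this order. In the Epi the first 5 genes kept their order, and *Alox12* came before *Alox15* and *Alox12e*. There only *Alox5* (0.155 to 0.392) and *Alox8* (0.0850 to 0.261) overlapped. Among all 18498 rows, *Alox12b* ranked 175 in the CvP against 133 in the Epi, *Elovl4* ranked 296 and 217, and *Aloxe3* ranked 720 and 377. The rank of *Alox15* went the other way, from 2854 in the CvP to 7040 in the Epi. An order between genes depends on the length by which reads were divided, which is not given in the sources used here. The listed length was 2.83 times the annotated transcript for *Elovl4*, 2.84 times for *Aloxe3* and 2.53 times for *Alox12b*, and 1.00 times for *Alox15* and *Alox5*. The CvP/Epi ratio of a gene does not depend on it.

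A minimum RPKM of 1 in one library or the other was reached by 9 of the 10 genes, and not by *Alox8*. A ratio above 3 was found for 3 of the 9 (*Alox5*, *Alox12e* and *Alox15*), and for 15.9% of the 12549 rows past the same minimum. A ratio below 1/3 was found for 0 of the 9 and for 1.96% of the rows. The 6 genes of the 9 with a ratio below 1 stood beside 21.8% of the rows. Direction varied with level over the whole table. Among rows with a geometric mean RPKM of at least 100, where *Alox12b* and *Elovl4* fall, 68.7% of 402 rows were lower in the CvP, and the median log2 ratio, taken with 0.1 added to each RPKM, was −0.36. Among rows from 30 to 100, where *Aloxe3*, *Ugcg* and *Abca12* fall, 49.5% of 1243 rows were lower in the CvP, with a median of 0.00. The direction of these 5 genes was thus a common one for genes of their level. *Alox12* falls among the rows from 10 to 30, of which 27.3% of 3061 were lower in the CvP, so its direction was the less common one there. *Alox15* and *Alox12e* fall among the rows from 3 to 10, of which 8.68% had a ratio above 3, and *Alox5* among those from 1 to 3, of which 23.7% did. The limits of a CvP RPKM above 10 and a ratio above 3 were met by *Alox15* and *Alox12e*, 2 of the 10 genes, beside 2.35% of all rows.

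**Figure D3:**
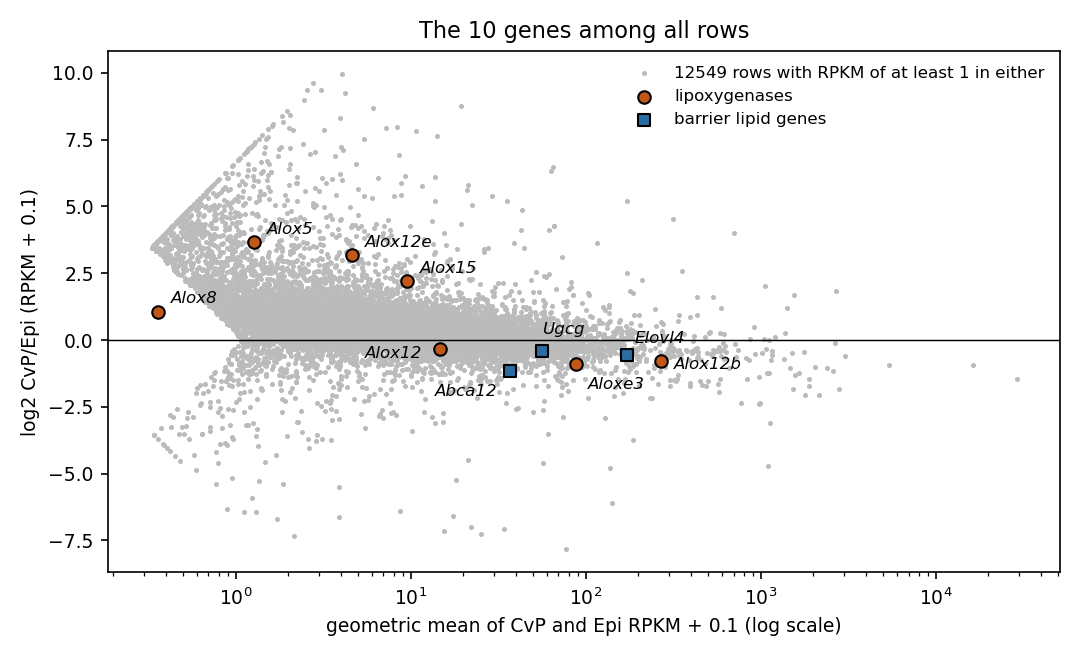
Log2 CvP/Epi against the geometric mean of CvP and Epi RPKM (log axis), with 0.1 added to each RPKM, 1 grey point for each of the 12549 rows past the minimum and 1 large point for each of the 10 genes. *Alox5*, *Alox12e*, *Alox15* and *Alox8* lie above 0 at low or middle levels, and the other 6 genes lie below 0 at higher levels.

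The median log2 ratio was −0.40 over the 9 genes and 0.50 over the 12549 rows. Rows at an RPKM of 1 or more in both libraries had a median ratio of 1.31, so that a gene at the middle of the table was listed higher in the CvP. Relative to that median, *Alox12b* was at 0.443, *Aloxe3* at 0.407, *Abca12* at 0.340 and *Alox12* at 0.599, while *Alox15* was at 3.56, *Alox12e* at 7.34 and *Alox5* at 13.0. The 4 genes higher in the CvP kept their direction on this scale. The other 6 could not change theirs, because the divisor is above 1.

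The 6 lipoxygenase genes of chromosome 11 lie in 2 groups, and genes lower in the CvP occurred in both. *Aloxe3* and *Alox12b* are 7.96 kb apart on the same strand and were both lower in the CvP. *Alox8* follows 14.1 kb after *Alox12b* on the opposite strand and was listed higher in the CvP, on only about 38 and 14 reads. The second group begins 1044 kb further on with *Alox12*, lower in the CvP, followed after 60.3 kb by *Alox12e* and after a further 21.6 kb by *Alox15*, both higher in the CvP. Rows of other genes between these members and within 100 kb of one of them differed in the size of their ratio. All were listed higher in the CvP, *Clec10a* on very few reads. *Slc16a11*, a monocarboxylate transporter family member 25 kb from *Alox12*, had an RPKM of 43.7 in the CvP against 2.16 in the Epi, a ratio of 20.2 (16.8 to 24.5). Its neighbour *Slc16a13* had a ratio of 2.31 (2.06 to 2.59) and *0610010K14Rik*, 3.54 kb from *Alox12*, a ratio of 1.51 (1.28 to 1.77). *Rnasek*, 1.60 kb from *Alox12*, had a ratio of 1.1 (1.02 to 1.19). *Bcl6b* was at 0.360 in the CvP against 0.10 in the Epi, *Gucy2e* at 0.210 and listed at 0, and *Clec10a* had 3 reads or fewer in both libraries. A higher CvP value was common in the table, where 21.8% of the rows past the minimum had a ratio below 1. The ratio of *Rnasek* was under the median of 1.31 of rows at an RPKM of 1 or more in both libraries. Of these neighbours, *Slc16a11* alone passed the minimum with a ratio above 3.

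**Figure D4:**
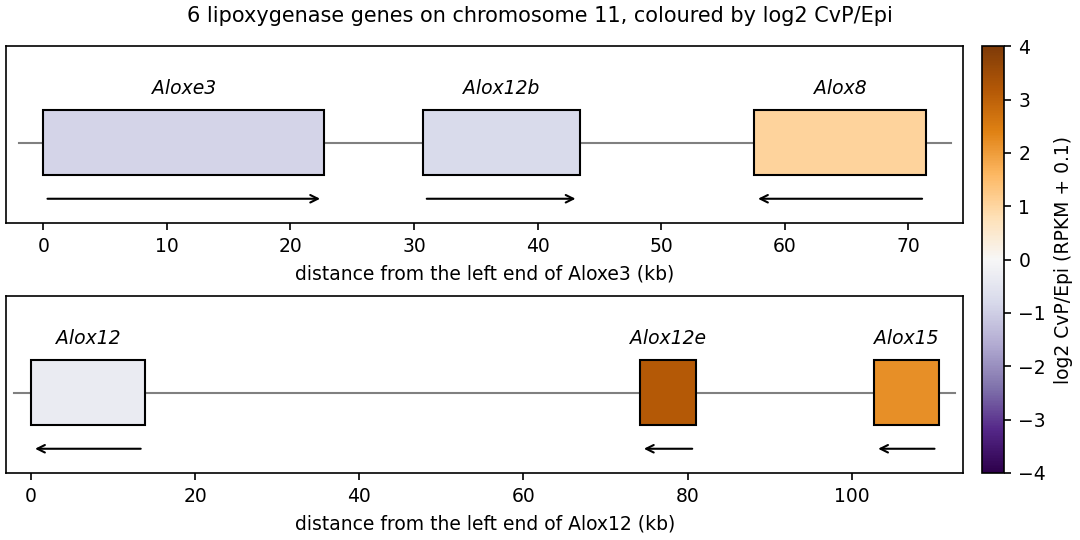
The 6 lipoxygenase genes of chromosome 11 drawn to scale in their 2 groups, with distance in kb from the left end of each group, arrows for the direction of transcription and colour for log2 CvP/Epi with 0.1 added to each RPKM. *Aloxe3*, *Alox12b* and *Alox12* have negative values, and *Alox8*, *Alox12e* and *Alox15* have positive ones.

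Promoters are shown for *Alox12b* and *Alox12e*, the lipoxygenase most abundant in the Epi and the chromosome 11 lipoxygenase with the highest ratio. They are RefSeq sequences of GRCm38.p6, a later build than that of the table, and run from 250 bases before to 50 after the gene's start. Capitals mark the GC box GGGCGG on either strand, the letters bound by Sp1 family factors.
Alox12b: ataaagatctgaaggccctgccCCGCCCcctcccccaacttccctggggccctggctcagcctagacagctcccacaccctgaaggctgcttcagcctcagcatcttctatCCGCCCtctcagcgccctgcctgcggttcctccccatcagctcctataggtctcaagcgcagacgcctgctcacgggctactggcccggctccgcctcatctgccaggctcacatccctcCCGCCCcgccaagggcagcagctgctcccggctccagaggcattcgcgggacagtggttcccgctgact
Alox12e: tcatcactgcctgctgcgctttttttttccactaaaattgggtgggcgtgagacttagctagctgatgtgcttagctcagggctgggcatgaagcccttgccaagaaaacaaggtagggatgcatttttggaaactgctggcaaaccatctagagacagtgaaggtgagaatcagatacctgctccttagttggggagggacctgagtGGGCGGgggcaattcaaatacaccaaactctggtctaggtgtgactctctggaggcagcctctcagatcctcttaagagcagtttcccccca

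The *Alox12b* window, at chr11:69156822-69157121 on the plus strand, held 3 GC boxes and 66.0% G and C. The *Alox12e* window, at chr11:70322481-70322780 on the minus strand, held 1 GC box and 50.7% G and C, near the median of 52.7% over all 32851 promoters. Of the 10 genes, 8 had a promoter in the table, and *Alox15* and *Aloxe3* had none. *Alox12* held 3 GC boxes, *Elovl4* and *Ugcg* 2 each, *Alox5* and *Alox8* 1 each and *Abca12* 0, beside 35.7% of all promoters with at least 1. The AP-1 letters TGANTCA (7.81% of all promoters) and the grainyhead letters AACNGGTT (2.09%), searched on both strands, were in none of the 8 windows. Such matches describe letters and not binding.

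A list of 22 genes of acylceramide synthesis held genes that act before *Alox12b* in the same pathway. It also held genes of other steps, such as a ceramidase and ceramide synthases for other chain lengths. Of 20 past the minimum, 13 were lower and 7 higher in the CvP, 4 had a ratio above 3 and 0 below 1/3, and the median log2 ratio was −0.32. The most abundant were lower in the CvP, as *Elovl4* was. The elongase *Elovl1* was at 126 in the CvP against 248 in the Epi, a ratio of 0.511 (0.496 to 0.526). *Degs1*, the dihydroceramide desaturase, had a ratio of 0.514 (0.495 to 0.534), and *Cers3*, the synthase for ultra-long acyl chains, was at 56.4 and 112, a ratio of 0.503 (0.486 to 0.520). *Cyp4f39*, the ω-hydroxylase of these chains, was at 90.6 and 113, a ratio of 0.799 (0.773 to 0.826). Near the limit of 1/3 were *Pnpla1*, which adds the linoleate on which *Alox12b* acts, at 0.369 (0.347 to 0.393), and the ceramidase *Acer1* at 0.368 (0.346 to 0.392). Both were chosen after their values were seen.

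The 4 genes of the list with a ratio above 3 did not include *Cers3*, *Elovl1* or *Cyp4f39*. They were *Cers2* and *Cers6*, ceramide synthases for other chain lengths, with ratios of 4.94 (4.41 to 5.55) and 4.17 (3.82 to 4.56), *Degs2*, which makes phytoceramide, at 4.76 (3.95 to 5.73), and *Acsl4*, the acyl-CoA synthetase that prefers arachidonate, at 8.91 (7.50 to 10.6). *Cers2* was at 29.0 in the CvP against 5.86 in the Epi, whereas *Cers3* was the higher of the 2 in both tissues.

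Genes that process the product of *Ugcg* were evenly divided. Of 12 genes of glucosylceramide and sphingomyelin processing, all past the minimum, 6 were lower and 6 higher in the CvP, 3 had a ratio above 3 and 1 below 1/3, with a median log2 ratio of 0.02. *Psap*, the precursor of the saposins that assist sphingolipid breakdown in lysosomes, was at 193 in the CvP against 94.9 in the Epi, a ratio of 2.03 (1.97 to 2.09). The sphingomyelinase *Smpd3* had the lowest ratio of the list, 0.315 (0.296 to 0.334), and the acid sphingomyelinase *Smpd1* was at 0.893 (0.847 to 0.941). Higher in the CvP were *Ugt8a*, which makes galactosylceramide in place of glucosylceramide, at 6.89 and 0.0700, a ratio of 98.4 (47.5 to 246), the sphingomyelin synthase *Sgms2* at 7.68 (6.59 to 9.0) and the β-galactosidase *Glb1* at 3.43 (2.92 to 4.06).

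Genes of the steps after the epidermal lipoxygenases and of the envelope were mostly lower in the CvP. Of 15 genes listed, 13 had a row and 12 passed the minimum, of which 9 were lower and 3 higher, 1 had a ratio below 1/3 and 0 above 3, with a median log2 ratio of −0.49. *Lor*, which encodes loricrin of the cornified envelope, was at 1052 in the CvP against 4379 in the Epi, a ratio of 0.240 (0.238 to 0.243). The transglutaminases *Tgm3* and *Tgm1*, which crosslink the envelope, had ratios of 0.675 (0.670 to 0.680) and 0.721 (0.704 to 0.738), and *Ppl*, encoding periplakin, was at 0.696 (0.689 to 0.704). *Sdr9c7*, the dehydrogenase that acts on the *Aloxe3* product, was at 28.2 and 58.1, and *Nipal4*, another ichthyosis gene, was at 24.9 and 55.8. These last 2 genes were chosen after their values were seen, and their ratios, 0.486 (0.462 to 0.511) and 0.446 (0.425 to 0.468), stood near those of *Aloxe3* and *Abca12*. The 3 genes higher in the CvP were the epoxide hydrolases *Ephx1*, at 94.8 and 36.4, a ratio of 2.60 (2.46 to 2.75), and *Ephx3*, at 1.04 (0.999 to 1.08), and *Ivl*, encoding involucrin, at 1.15 (1.06 to 1.24). Of the listed names without a row, *Sts* was not analysed here, and *Cyp4f22* is the name of the human counterpart of *Cyp4f39*, given above.

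Genes that act with *Alox5* were read from 19 genes of leukotriene and prostaglandin synthesis and reception. Of 13 past the minimum, 11 were higher and 2 lower in the CvP, 4 had a ratio above 3 and 1 below 1/3, with a median log2 ratio of 0.47, close to the 0.50 of all rows. *Alox5ap*, the membrane protein that presents arachidonate to *Alox5*, was at 3.31 in the CvP against 0.750 in the Epi, a ratio of 4.41 (2.60 to 7.75) from about 80 and 18 reads. *Ltc4s*, the leukotriene C4 synthase, was at 12.7 and 0.0600. With about 258 reads against 1, its ratio was 212 (45.1 to 10062). *Lta4h*, which makes leukotriene B4, was at 26.9 and 19.3, a ratio of 1.39 (1.29 to 1.5). *Gpx4*, which reduces the hydroperoxides that lipoxygenases make, had a ratio of 3.52 (3.01 to 4.13), and the prostaglandin D synthase *Hpgds* one of 7.50 (5.20 to 11.4). Of the abundant prostaglandin genes, *Ptges* was at 2.39 (2.24 to 2.56), *Ptges3* at 1.06 (0.996 to 1.13) and *Hpgd*, which inactivates prostaglandins, at 0.294 (0.279 to 0.309). *Alox5* relative to *Alox15* was at 0.218 in the CvP against 0.0598 in the Epi, a change of 3.64 times (2.28 to 5.82).

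The relatives of *Elovl4* and *Abca12* differed from each other. Of 6 other *Elovl* genes, 4 of the 5 with a row passed the minimum, and 0 had a ratio above 3 or below 1/3. Besides *Elovl1*, *Elovl7* was at 0.897 (0.867 to 0.928), *Elovl6* at 0.964 (0.925 to 1.00) and *Elovl5* at 1.00 (0.935 to 1.07). Of 15 other *Abca* genes, 14 had a row and 7 passed the minimum, all higher in the CvP, opposite to *Abca12*, with 3 above 3. Over all rows past the minimum, 21.8% had a ratio below 1 and 15.9% had one above 3. Direction varied with level, as given above, and these 7 genes had lower levels than *Abca12*. *Abca13* was at 16.2 in the CvP and listed at 0 in the Epi. *Abca3*, the lipid transporter of lung surfactant, was at 15.2 and 2.66, a ratio of 5.72 (5.19 to 6.31), and *Abca8b* at 1.15 and 0.0300, a ratio of 38.3 (16.8 to 124). *Abca7* and *Abca2* had ratios of 1.66 (1.55 to 1.78) and 2.19 (2.0 to 2.39), and *Abca16* was listed at 0 in both libraries. *Abca12* had the highest RPKM of the family in both tissues.

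**Figure D5:**
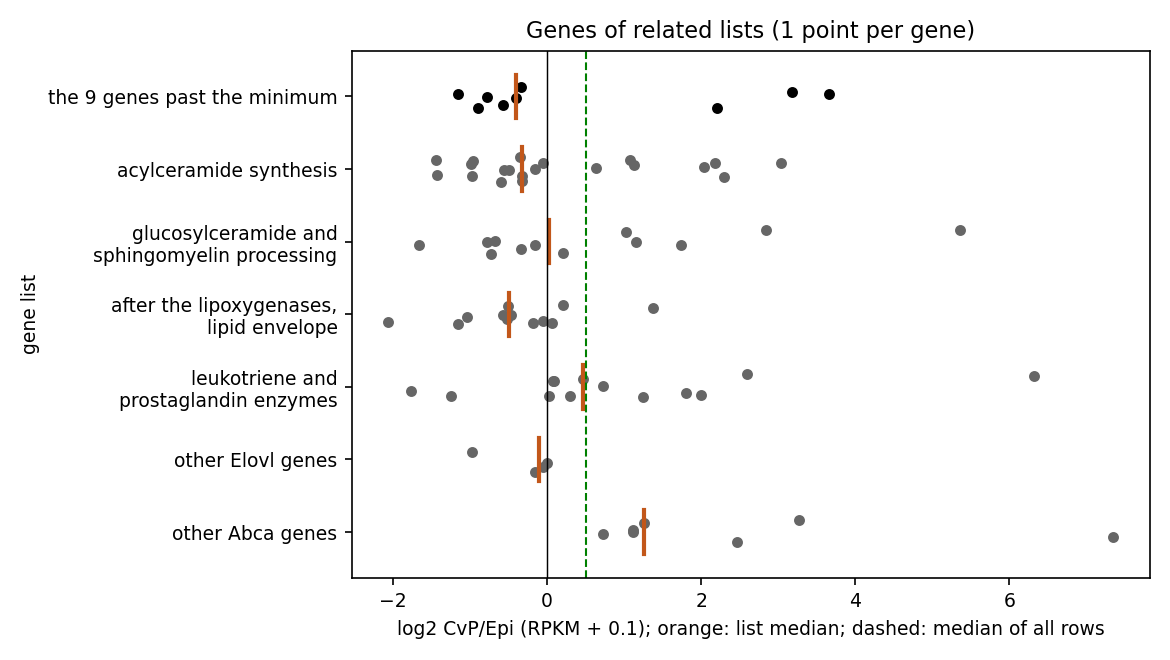
Log2 CvP/Epi, with 0.1 added to each RPKM, of the genes of each pathway or family list that passed the minimum RPKM of 1, 1 point per gene, with an orange mark for the list median, a dashed line for the median of all rows and the 9 members in the top row. The median is −0.49 for the steps after the epidermal lipoxygenases and 1.26 for the other *Abca* genes.

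Cell type markers differed between the libraries, not all in one direction, and their part in the values above was not tested. Of 11 genes of keratinized epithelium, 9 passed the minimum and 8 of these were lower in the CvP, 6 of them below 1/3. Their summed RPKM was 32168 in the CvP against 86563 in the Epi, led by *Krt13* (17549 and 47815) and *Krt4* (11801 and 22406), keratins of internal stratified epithelium. Of the epidermal keratins, *Krt10* was at 47.2 in the CvP against 355 in the Epi, *Krt1* at 29.5 against 24.4, the only one of the 9 that was higher in the CvP, and *Krt2* had 1 read in each library. Basal keratinocyte genes did not share one direction, with 5 of 7 higher in the CvP, *Krt5* at 1506 and 1271 and *Krt14* at 295 and 1140.2, and a summed RPKM of 2615 and 3371. Sebaceous gland genes, of which 2 passed the minimum, summed to 13.3 and 14.2, with *Far2* at 5.18 and 9.54 and *Scd1* at 7.16 and 3.69.

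Beside *Alox5*, *Alox15* and *Alox12e*, macrophage and type II taste cell genes were higher in the CvP, whereas few genes of other leukocytes passed the minimum. Of the 9 macrophage genes with a row, 6 passed the minimum, and these were all higher in the CvP, 5 above 3-fold. The list had a summed RPKM of 52.0 in the CvP against 7.67 in the Epi, with *Cd14* at 20.4 and 0.940 and *Cd68* at 10.8 and 4.45. The neutrophil genes, of which 2 of the 6 with a row passed the minimum, summed to 4.64 and 0.640, with *Csf3r* at 2.20 and 0.0100 and *Cxcr2* at 2.0 and 0.60, and *Elane* was at 0 in both. The mast cell genes, of which 2 of 3 passed, summed to 28.6 and 1.86, nearly all of it *Kit* (26.3 and 1.81) and *Hdc* (2.27 and 0.020), and *Cpa3*, a defining protease, was at 0 in the CvP against 0.0300 in the Epi. The eosinophil genes, of which 0 of 3 passed, summed to 0.060 and 0.020, with *Siglecf* at 0.050 and 0.020 and *Epx* at 0 in both. Type II taste cell genes, all 6 higher in the CvP, summed to 309.8 and 26.3, with *Gnat3* at 127 and 0.0300 and *Plcb2* at 70.0 and 0.12. Most of the Epi sum came from *Itpr3*, at 30.1 and 21.9, a ratio of 1.37 (1.33 to 1.42).

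For *Alox12*, the platelet genes summed to 139 in the CvP against 18.2 in the Epi, of which *Ppbp* gave 124 and 0.200, while *Gp1bb* was at 11.1 and 15.7 and *Gp9* at 0 in both. Skeletal muscle genes, all 7 below 1/3, summed to 3.64 and 51.4, with *Acta1* at 0.860 and 12.9 and *Ckm* at 0.670 and 10.6. Salivary gland genes, 4 of 7 lower in the CvP, summed to 22.3 and 431, with *Lipf* at 1.96 and 313 and *Amy1* at 0.850 and 80.5. Others of that list were higher in the CvP, with *Pigr* at 12.0 and 0.540 and *Aqp5* at 6.09 and 0.690.

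The genes nearest in level to the 3 most abundant members were sought over the 2 libraries by distance in log2 of RPKM with 0.1 added, a likeness of 2 values only. Nearest to *Alox12b* were *Prdx5* (201 in the CvP against 349 in the Epi, distance 0.0332), *Spink5* (220.0 and 336, 0.124) and *Rpl13* (225 and 319, 0.196). Those nearest to *Elovl4* were *Chit1* (139 and 214, 0.0334), *Csda* (143 and 214, 0.0399) and *Dynll1* (138 and 202, 0.0605). For *Aloxe3* they were *Wfdc5* (61.6 and 119, 0.0545), *Ndel1* (65.1 and 114, 0.0748) and *Hprt* (67.0 and 115, 0.0869). *Spink5* encodes a protease inhibitor of the skin barrier, while *Rpl13* and *Hprt* are used by nearly every cell.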

How the data were processed

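RNA of at least 20 mice was pooled for each of 2 libraries, 1 of CvP and 1 of Epi. Poly(A) libraries were made with a TruSeq kit (strandedness not given in the sources used here), and single-end reads of 75 bp were mapped with Bowtie 0.12.7 to NCBI37/mm9, steps that a service company carried out. The authors deposited RPKM values made by ERANGE on an exon model, whose options are not given in the sources used here. The table also holds the authors' CvP/Epi ratios, which were not used. Of the 18498 rows, 455 name no gene.

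The 10 members and the lists were chosen with earlier results of these data known. Depth was read from the steps of 0.352 (CvP) and 0.358 (Epi) RPKM in 163 rows of 0.1 kb. The reads of a gene were estimated with its listed length or its longest GENCODE M1 coding transcript, whichever was shorter, because listed lengths would imply 177% and 199.8% of the mapped reads. In rows of up to 0.5 kb, 96.4% and 97.4% of values under 20 reads fell within 0.1 of a whole read. Ratios have 95% Clopper-Pearson intervals and levels exact Poisson intervals, and quotients of the ratios of 2 genes have intervals from counting error on the log scale. The ratio intervals were checked on simulated reads with counting error only. That check used rows at higher Epi levels than those of *Alox5*, *Alox8*, *Alox12e* and *Alox15*, so it does not cover these genes. For log2 ratios 0.1 was added to each RPKM, so that changes of low genes are understated. Counts past 3-fold use rows that reached an RPKM of 1 in one or both libraries. A count at or below 3 reads in both libraries was given no ratio. Genes named beyond the 10 were the 4 highest of each pathway or family list and those past 3-fold, the 2 highest of each marker list and those at 0 in both libraries, the genes between members on chromosome 11 within 100 kb of one, and the 3 genes nearest to each of the 3 highest members. *Pnpla1*, *Acer1*, *Sdr9c7*, *Nipal4*, *Ephx1*, *Ephx3*, *Ivl*, *Krt1*, *Krt2*, *Krt10*, *Itpr3*, *Pigr*, *Aqp5*, *Cpa3* and the gene beside *Alox5* were chosen after their values were seen. Ceramide synthases were matched by gene ID. The values of 1 gene that this rule names are not reported here. The alternatives were other pseudocounts, minimums, fold limits, scalings and lengths. Calculations used Python 3.11.15, numpy 2.4.6, pandas 2.3.3, scipy 1.17.1 and matplotlib 3.10.9.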

Additional observations from a re-analysis of the deposited data

How the results depend on the processing

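With 1 pooled library per tissue, no library could be left out and differences between mice could not be measured. No paired analysis was possible because only 1 library stood for each tissue. The median log2 ratio of the members, −0.40, was −0.79 with ratios divided by the median of all rows, −0.80 with their trimmed mean as divisor, and −0.13 with RPKM rescaled to the same sum. It was 0.93 for the lipoxygenases alone and −0.57 for the barrier lipid genes alone, so the median over all members hides that the lipoxygenases split. Members past the limit numbered 3 at 3-fold under each pseudocount, minimum and scaling, 4 at 2-fold (*Abca12* added, lower in the CvP) and 2 at 5-fold (*Alox12e* and *Alox5*). Over all rows, the share of calls that were higher in the CvP was 89.0%. It was 80.3% with the median as divisor and 93.1% with RPKM rescaled to the same sum. Of 50 values of single-member ratios under 5 settings, 27 left their counting interval and 0 crossed 1. A pseudocount can carry no ratio across 1, and each scaling can do so only for genes on one side of it. The absence of crossings is therefore partly fixed by the settings. With a pseudocount of 1, *Alox5* was at 4.31, *Alox12e* at 6.10 and *Alox8* at 1.23, and *Alox12* was at 0.949 with sums made equal. Intervals from the listed length left each member on its side of 1. This could not come out otherwise, because that length leaves the ratio as it is and only raises the estimated reads. Depth limits *Alox8* and the Epi value of *Alox5*.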

Other observations

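The row nearest to *Alox5* carried gene ID 71779 on the opposite strand, 530 bases away, with a symbol that reads as a calendar date. It was chosen after its values were seen. Its CvP/Epi ratio was 0.738 (0.713 to 0.765), from 24.6 against 33.3 RPKM, so *Alox5* (4.43 and 0.260) and its neighbour lay on opposite sides of 1.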
